A study of Mus musculus with 4 samples.

Results

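The genes described are 47 that copy DNA and make its building blocks: the factors that mark and license replication origins, the MCM and GINS parts of the replicative helicase, the polymerases and primase, the clamp and its loader, the single-strand binding and joining factors, the enzymes of deoxynucleotide supply and the regulators of entry into S phase. They were taken by symbol from a list, after the Entrez identifiers in the files had been matched to mouse gene symbols, a rule that uses no measured value, although the list was drawn up with earlier results of these data known. All 47 were found among the 23480 identifiers, and all 47 passed the filter on low counts that left 10324 genes for testing. The libraries were made from total RNA of mouse T cells, 2 from cells under the Th9 condition with TLA1 added (Th9+TLA1) and 2 from cells under the Th9 condition alone (Th9). TLA1 in the labels is taken to be TL1A, the spelling of the title and the name of a cytokine of the TNF superfamily. The Th9 type of helper T cell is known for secreting interleukin 9. Strain, age, culture time and dose are not given in the labels. Whether the replicates were separate animals or cultures is not given either, so every p below rests on a spread between libraries that may be technical.

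A cell copies its genome once per division. In G1 the origin recognition complex, CDC6 and CDT1 load the MCM ring onto DNA. In S phase kinases switch the ring on by adding CDC45 and GINS, and polymerases then copy both strands behind it. Many of these genes are known targets of E2F transcription factors, which are held back by the retinoblastoma family until cyclin-dependent kinases release them, so their mRNAs rise together as cells approach S phase. Activated T cells are known to divide fast and to carry high levels of these mRNAs. In bulk RNA, fewer cells of a kind (here, cells in or near S phase) and less RNA per cell cannot be told apart.

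Reads counted in genes, recovered from the deposited CPM (read counts scaled to a common library total), came to 2979482 and 3081187 in the Th9+TLA1 libraries and 4041633 and 3167270 in the Th9 libraries. A count of 3 reads equals 0.742 to 1.007 CPM, and every one of the 47 genes lay above that in all 4 libraries, the lowest being Gins1 with 22 reads in Th9+TLA1 replicate 1. The T cell markers were present, with a summed level over 8 genes (Cd3e, Cd4 and Lck among them) of 3785 and 3605 CPM in the Th9+TLA1 libraries and 2846 and 3286 CPM in the Th9 libraries. The defining B cell gene Ms4a1, the myeloid genes Lyz2 and Csf1r, the NK cell genes Ncr1 and Klrb1c and all 3 erythroid markers were at 0 in all libraries. Of the 4 B cell markers Cd79b carried most of the signal, with 24.2 and 28.6 CPM in the Th9+TLA1 libraries and 6.19 and 12.9 CPM in the Th9 libraries. The summed level of those 4 was 28.9 and 29.2 CPM with TLA1 and 10.4 and 12.9 CPM without. Of 5 myeloid markers Cd68 was above 0 in all libraries, with 7.72 and 4.54 CPM in the Th9+TLA1 libraries and 0.99 and 1.58 CPM in the Th9 libraries (limma adjusted p = 0.269). The 5 myeloid markers summed to 7.72 and 4.54 CPM with TLA1 and 3.22 and 1.89 CPM without. The 3 dendritic cell markers summed to 3.36 and 1.62 CPM with TLA1 and 0.247 and 0.316 CPM without, with Flt3 at 5 and 5 reads against 1 and 0 reads. The 3 NK cell markers summed to 0 and 0.325 CPM with TLA1 and 0.990 and 0 CPM without. The part of these marker differences in the results below was not tested.

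The comparison asked whether the replication programme differed when TLA1 was present. Most of these genes had lower values with TLA1, by a modest amount, and none passed the test. The log2 fold change (Th9+TLA1 over Th9, on log2(CPM + 1) after TMM scaling, fitted with limma) was below 0 for 41 of the 47 genes, which is 87.2%, where 51.1% of all tested genes lay below 0. Its median was -0.39 over the 47 genes and -0.01 over all tested genes. The values ran from -0.90 for Pola1 to 0.33 for Ccne1, and no gene reached 1 in either direction. In deposited CPM, which carry no TMM scaling, the 47 genes summed to 5629 and 6221 CPM in the Th9+TLA1 libraries. The Th9 libraries had 8502 and 8086 CPM, so the sum was 28.6% lower on average with TLA1. Without TMM scaling the median log2 fold change of all tested genes was -0.10.

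The threshold was an adjusted p of 0.05, by the Benjamini-Hochberg method across the 10324 tested genes. With limma 0 of the 47 genes passed it in either direction, where 1.14% of all tested genes were called. The smallest adjusted p values among the 47 were 0.0764 for Mcm2 and 0.0779 for Rrm2. At an unadjusted p under 0.05, 16 of the 47 (34%) were lower with TLA1 and 0 were higher, where 8.14% of all tested genes were lower and 8.54% higher. The count of 16 was 6 without Th9+TLA1 replicate 1. Those 16 were spread over 7 of the 8 role groups, with 4 of 6 MCM ring genes, 4 of 9 polymerase genes, 3 of 5 licensing genes and 2 of 5 nucleotide genes among them. By other tools on the recovered reads, DESeq2 called 2 of the 47 (Mcm2 and Rrm2, both lower), where it called 2.64% of tested genes. The quasi-likelihood test of edgeR called 0 of the 47 and 1.07% of tested genes, and limma voom called 0 and 1.26%. The 118 genes that limma called had a median absolute log2 fold change of 1.51, and only 2 of them lay below the 0.90 of Pola1.

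The deposited CPM of the groups did not overlap for 38 of the 47 genes, all 38 lower in both Th9+TLA1 libraries than in either Th9 library. That is 80.9%, where 29% of all tested genes were separated in that direction and 19.1% in the other. After TMM scaling 32 of the 47 genes were separated, all lower with TLA1, against 23.7% of all tested genes. The counts of separated genes in each role group below stand beside these shares of 29% and 23.7%. The 9 genes whose groups overlapped in deposited CPM were Orc1, Gins2, Prim2, Pold2, Pole2, Rfc3, Ccne1, E2f2 and Cdc25a. The absolute log2 fold change exceeded the gap between replicates in both groups for 26 of the 47 genes, all 26 lower with TLA1. That is 55.3%, against 16.5% of all tested genes that did so with a lower and 17.3% with a higher value. That gap had a median of 0.23 on the log2 scale between the Th9+TLA1 libraries and 0.20 between the Th9 libraries.

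**Figure D1:**
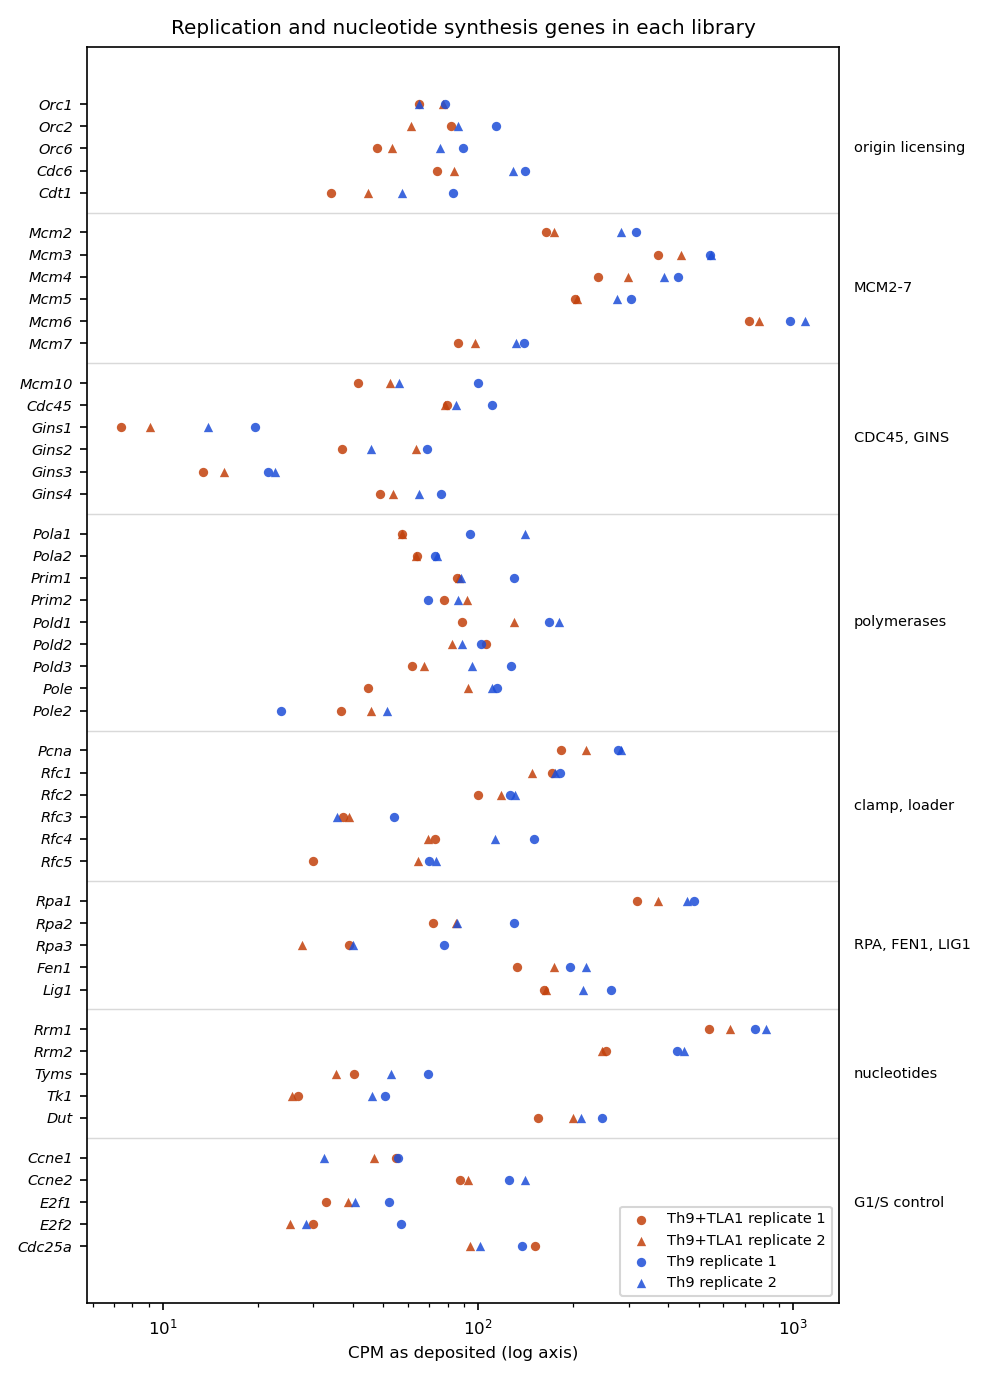
Deposited CPM (log axis) of the 47 genes in each of the 4 libraries, grouped by role. Orange marks are Th9+TLA1 and blue marks Th9, with circles for replicate 1 and triangles for replicate 2; in 38 genes both orange marks lie left of both blue marks.

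**Figure D2:**
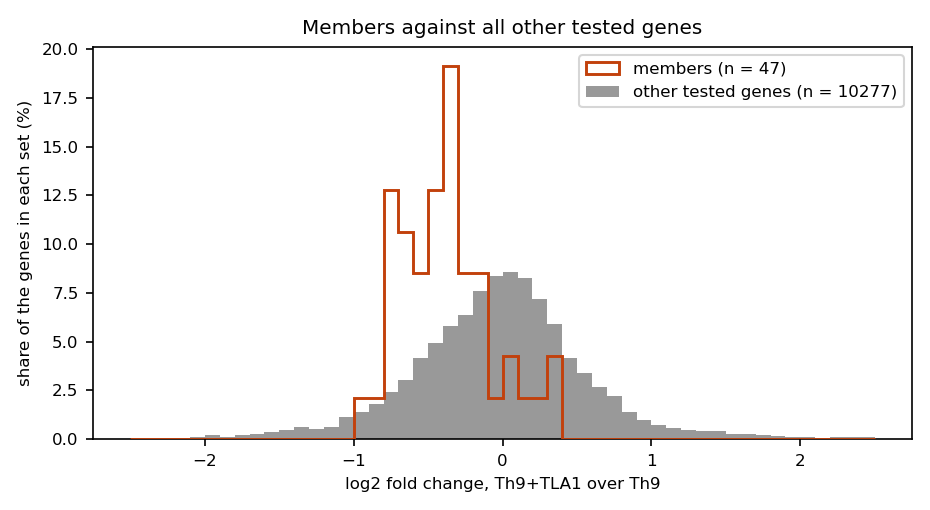
Share of genes (%) in each step of 0.1 of log2 fold change, Th9+TLA1 over Th9, for the 47 genes (orange line) and for all other tested genes (grey). The 47 genes lie between -0.90 and 0.33, and 52 tested genes beyond the ends of the axis are not drawn.

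E2F factors are known to bind a short motif, and 4 of its forms were searched on both strands in RefSeq promoter windows of GRCm38.p6 (250 bases before to 50 after each annotated start). The table held 46 windows for 39 of the 47 genes. Mcm4, Gins1, Gins2, Gins4, Prim2, Pole, Rfc2 and Ccne2 had no entry. These were TTTCCCGC, TTTCGCGC, TTTGCCGC and TTTGGCGC, and motifs that overlap on opposite strands were counted separately. At least 1 form was found in 16 of the 46 windows (34.8%), against 2.26% of all 32851 windows in the table and 4.26% of the 10591 windows of tested genes. TTTGCCGC was in none of the 46 windows, while TTTGGCGC was in 8, TTTCCCGC in 7 and TTTCGCGC in 6. CCAAT, the letters of the NF-Y factor's motif, was found on either strand in 27 of the 46 windows (58.7%), against 37.4% of all windows. A match describes the letters, not a bound site.

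The median log2 fold change was -0.45 over the 16 genes with an E2F-type motif in a window and -0.36 over the 23 genes with a window but none, a description that was not tested. Unadjusted p was under 0.05 for 8 of the 16 and for 5 of the 23. The stretches below are those of the 8 genes with such a motif and an unadjusted p under 0.05. These genes had lower values with TLA1, and none passed the adjusted threshold. The marked motif begins after the annotated start in Pold3 (base 18), Pold1 (40), Cdt1 (33), Lig1 (27) and Mcm7 (17). In Pola1, Cdc6 and Mcm5 it lies before the start. Each stretch has 60 bases on the gene's own strand, 5′ to 3′, with E2F-type motifs in capitals.
Pola1, chrX:93632260-93632319, minus strand: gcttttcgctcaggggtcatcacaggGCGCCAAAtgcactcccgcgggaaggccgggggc
Cdc6, chr11:98907987-98908046, plus strand: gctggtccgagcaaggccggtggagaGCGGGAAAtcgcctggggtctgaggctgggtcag
Pold3, chr7:100121453-100121512, minus strand: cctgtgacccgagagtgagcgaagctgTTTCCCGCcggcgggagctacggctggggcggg
Pold1, chr7:44548766-44548825, minus strand: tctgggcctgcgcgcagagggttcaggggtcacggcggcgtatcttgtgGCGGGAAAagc
Cdt1, chr8:122568005-122568064, plus strand: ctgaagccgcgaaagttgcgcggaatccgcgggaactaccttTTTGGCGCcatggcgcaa
Lig1, chr7:13278816-13278875, plus strand: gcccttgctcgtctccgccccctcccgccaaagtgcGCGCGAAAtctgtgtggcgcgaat
Mcm5, chr8:75109334-75109393, plus strand: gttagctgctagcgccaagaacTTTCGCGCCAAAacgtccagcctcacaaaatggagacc
Mcm7, chr5:138171834-138171893, minus strand: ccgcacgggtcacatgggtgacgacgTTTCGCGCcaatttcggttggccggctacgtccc
In Mcm5 a motif on each strand overlaps the other, which gives 1 longer run of capitals. Over all member windows there were 22 motifs, and 15 of them began within 100 bases before the start or after it.

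**Figure D3:**
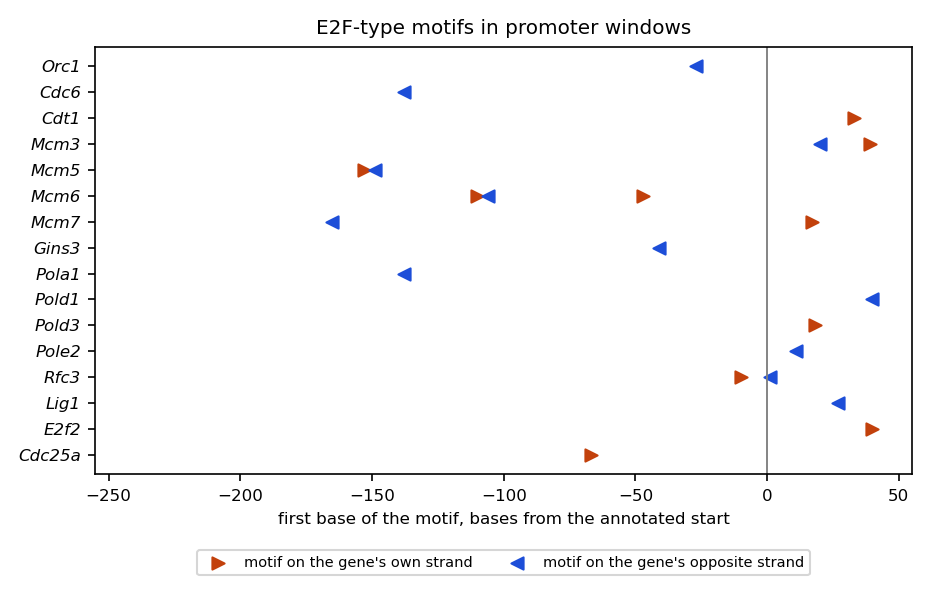
Position of the first base of each E2F-type motif, in bases from the annotated start, in the promoter windows of the 16 genes that hold one. Triangles pointing right are on the gene's own strand and those pointing left on the opposite strand; 15 of the 22 begin no more than 100 bases before the start.

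Origin recognition and licensing was measured by 5 genes, and 4 of them were lower in both Th9+TLA1 libraries than in either Th9 library. Values of a group are given for replicate 1 and then replicate 2 here and below. Cdt1 (Entrez 67177, chromosome 8, 122568015 to 122573130 of mm10), the licensing factor that brings MCM rings to origins, had 34.2 and 44.8 CPM in the Th9+TLA1 libraries, against 83.4 and 57.1 CPM in the Th9 libraries. The log2 fold change of Cdt1 was -0.71 ± 0.28 (SE, limma adjusted p = 0.237). Cdc6 (Entrez 23834, chromosome 11, 98907709 to 98923942), the ATPase that loads the rings with CDT1, had 73.8 and 83.7 CPM with TLA1, against 141 and 129 CPM without it. The replicates of Cdc6 lay close together on each side, and its log2 fold change was -0.67 ± 0.21 (limma adjusted p = 0.145).

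The subunits of the origin recognition complex differed in their values. Orc6 averaged 50.4 ± 3.94 CPM in Th9+TLA1 libraries and 82.5 ± 9.98 CPM in Th9 libraries (SD, n = 2 each), and Orc2 averaged 71.6 ± 15.0 and 100.04 ± 19.1 CPM. Orc1, the largest subunit, known to be made and destroyed with the cell cycle in human cells, averaged 71.2 ± 9.04 CPM with TLA1 and 71.7 ± 9.87 CPM without, so its groups overlapped. The Orc1 locus overlaps Prpf38a over several kilobases, and the kit does not mark strand, so reads there could belong to either gene. Whether such reads were counted for Orc1, for Prpf38a or for neither was not examined.

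The MCM2-7 ring, the motor of the replicative helicase, was lower in all 6 of its genes. Each of the 6 had lower deposited CPM in both Th9+TLA1 libraries than in either Th9 library, also after TMM scaling. Mcm2 (Entrez 17216, chromosome 6, 88883474 to 88898780), which encodes the subunit that also carries histones at the fork, had 164 and 174 CPM in the Th9+TLA1 libraries, against 317 and 284 CPM in the Th9 libraries. It showed the smallest p of the 47 genes, at a log2 fold change of -0.73 ± 0.18 (limma adjusted p = 0.0764, ± SE). The adjusted p of Mcm2 lay between 0.0199 and 0.297 over 16 alternative settings, and it passed with DESeq2 (0.0199) and with a trend of gene length and GC content removed (0.0491). Mcm4 had 240.0 and 299 CPM with TLA1, against 429.8 and 387 CPM without, which is -0.51 ± 0.18 as a log2 fold change (limma adjusted p = 0.189).

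The other 4 ring genes, Mcm3, Mcm5, Mcm6 and Mcm7, had log2 fold changes between -0.46 and -0.35. Their adjusted p ran from 0.259 to 0.346 (limma). The summed level of the ring was 1785 and 1996 CPM in the Th9+TLA1 libraries and 2710.0 and 2714 CPM in the Th9 libraries. The ring holds its subunits in equal numbers, but their mRNA levels per kilobase of merged exon were unequal. Merged exon length joins the exons of a gene's annotated transcripts, used in these cells or not. Orders per kilobase here and below depend on that length. Mcm6 stood highest, at 172 CPM per kb in Th9+TLA1 and 235 CPM per kb in Th9 libraries (group means). Mcm3 followed at 134 and 180.3 CPM per kb and Mcm4 at 75.03 and 114 CPM per kb, and Mcm7 was lowest at 31.1 and 45.7 CPM per kb. Mcm6, Mcm3, Mcm4 and Mcm7 held these places in each of the 4 libraries. Between them, Mcm2 was at 48.8 and 51.7 CPM per kb in the Th9+TLA1 libraries, under the 58.5 and 59.4 of Mcm5. In the Th9 libraries Mcm2 was at 93.9 and 84.4 CPM per kb, over the 88.2 and 79.9 of Mcm5. The locus of Mcm7 also holds the miRNA genes Mir25, Mir93 and Mir106b.

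The factors that turn the loaded ring into a working helicase were lower in all 6 genes by fold change, and 5 of the 6 had separated groups. Gins1 and Gins3 had fewer than 100 reads in every library, which limits their precision. Gins1 (Entrez 69270, chromosome 2, 150909556 to 150931280), a subunit of the 4-part GINS complex, had 7.38 and 9.09 CPM in the Th9+TLA1 libraries, against 19.5 and 13.9 CPM in the Th9 libraries. Its log2 fold change of -0.84 had an SE of 0.47 (limma adjusted p = 0.401). Mcm10, which helps the helicase start unwinding, had 41.6 and 52.6 CPM with TLA1, against 99.96 and 56.2 CPM without. Th9 replicate 2 lay much closer to the Th9+TLA1 libraries than to Th9 replicate 1 for this gene (log2 fold change -0.58 ± 0.29, limma adjusted p = 0.355). Leaving out Th9 replicate 1 gave -0.22 for Mcm10, and leaving out Th9 replicate 2 gave -0.93.

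Cdc45, the third part of the CMG helicase beside MCM and GINS, averaged 78.9 ± 0.939 CPM in Th9+TLA1 libraries and 98.0 ± 18.1 CPM in Th9 libraries (SD, n = 2 each). Among the other GINS genes, Gins3 and Gins4 had log2 fold changes of -0.49 and -0.36, and Gins2 one of -0.12 with overlapping groups. Per kilobase, Gins4 stood well above the other GINS genes in all 4 libraries, with group means of 37.9 CPM per kb in Th9+TLA1 and 52.3 CPM per kb in Th9 libraries. Gins3 was lowest, at 5.35 and 8.17 CPM per kb. Before division by length, Gins4 and Gins2 averaged 51.1 and 50.1 CPM in Th9+TLA1 libraries, and 70.5 and 57.4 CPM in Th9 libraries. Their merged exon lengths were 1349 and 3900 bases.

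The polymerases and primase were divided. In deposited CPM 6 of 9 genes were lower in both Th9+TLA1 libraries, and 3 had fold changes above 0 and overlapping groups. After TMM scaling 5 of 9 were separated, as the groups of Prim1 then overlapped. Pola1 (Entrez 18968, chromosome X, 93304766 to 93632387), the catalytic subunit of the polymerase that extends primers, had 57.4 and 57.1 CPM in the Th9+TLA1 libraries, against 94.0 and 140.5 CPM in the Th9 libraries. Its log2 fold change of -0.90 ± 0.26 was the largest in size among the 47 genes (SE, limma adjusted p = 0.125), and it was -0.56 without Th9 replicate 2. Pole, the catalytic subunit of the leading-strand polymerase, had 44.6 and 92.8 CPM with TLA1, against 114 and 111 CPM without. Th9+TLA1 replicate 2 lay nearer to the Th9 libraries than to Th9+TLA1 replicate 1, and the log2 fold change of -0.70 ± 0.30 (limma adjusted p = 0.271) was -0.19 without Th9+TLA1 replicate 1 and -1.22 without Th9+TLA1 replicate 2.

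Estimated fold changes differed between some parts of the same enzyme and lay close together for others. For the lagging-strand polymerase delta, the catalytic Pold1 and the accessory Pold3 had log2 fold changes of -0.59 ± 0.22 and -0.67 ± 0.23 (limma adjusted p 0.218 and 0.174), while the accessory Pold2 had 0.06 ± 0.22. Without Th9+TLA1 replicate 1 the value for Pold1 was -0.33. Pold2 averaged 94.2 ± 16.7 CPM in Th9+TLA1 libraries and 95.7 ± 9.47 CPM in Th9 libraries (SD, n = 2 each). For polymerase alpha, Pola2 had -0.12 beside the -0.90 of Pola1. The primase subunits Prim1 and Prim2 had -0.22 and 0.22. Pole2, the accessory subunit of polymerase epsilon, had 36.6 and 45.8 CPM with TLA1, against 23.8 and 51.5 CPM without, so that its Th9 replicates enclosed both Th9+TLA1 values. Differences between the subunits of an enzyme were not tested.

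The sliding clamp and its loader had fold changes below 0 in all 6 genes, though only for Pcna and Rfc4 did the groups stay separated after TMM scaling. Rfc4 (Entrez 106344, chromosome 16, 23113948 to 23127730), a small subunit of the loader, had 73.2 and 69.5 CPM in the Th9+TLA1 libraries, against 150.4 and 113 CPM in the Th9 libraries. On the log2 scale that is -0.77 ± 0.22 (SE, limma adjusted p = 0.124), and 1 end of its locus overlaps Eif4a2. Rfc5 had 29.9 and 64.6 CPM with TLA1, against 70.0 and 73.2 CPM without, and Th9+TLA1 replicate 1 alone stood far below the other 3 libraries. The log2 fold change of Rfc5, -0.60 ± 0.33 (limma adjusted p = 0.399), was -0.06 without that library and -1.14 without the other Th9+TLA1 library. Pcna, the clamp itself, averaged 201 ± 25.6 CPM in Th9+TLA1 libraries and 280.3 ± 4.53 CPM in Th9 libraries (SD, n = 2 each; log2 fold change -0.39 ± 0.18, limma adjusted p = 0.310). Rfc1, Rfc2 and Rfc3 had log2 fold changes between -0.15 and -0.07. The loader uses its 5 subunits together, yet Rfc4 stood above the other 4 subunits per kilobase in all 4 libraries, at 54.6 CPM per kb in Th9+TLA1 and 101 CPM per kb in Th9 libraries.

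Single-strand binding and Okazaki fragment joining showed 5 of 5 genes lower with TLA1 and separated in deposited CPM, and 3 of 5 after TMM scaling. Rpa3 (Entrez 68240, chromosome 6, 8255936 to 8259141), the smallest subunit of the RPA complex that coats single-stranded DNA, had 38.9 and 27.6 CPM in the Th9+TLA1 libraries, against 77.7 and 40.1 CPM in the Th9 libraries. Th9 replicate 2 was nearly level with Th9+TLA1 replicate 1 (log2 fold change -0.66 ± 0.34, SE, limma adjusted p = 0.365). Without Th9 replicate 1 the value was -0.24, without Th9 replicate 2 it was -1.08, and without Th9+TLA1 replicate 2 it was -0.41. Lig1, the ligase that seals Okazaki fragments, had 161 and 164 CPM with TLA1, against 263 and 216 CPM without. The log2 fold change of Lig1 was -0.46 ± 0.18 (limma adjusted p = 0.242), and 1 end of its locus overlaps Zswim9. Rpa1, Rpa2 and Fen1, the flap endonuclease that trims the fragments, had log2 fold changes between -0.36 and -0.34.

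The mRNA values of the deoxynucleotide supply genes were lower with TLA1 in 5 of 5, with separated groups before and after scaling, and 0 were called. Rrm2 (Entrez 20135, chromosome 12, 24708254 to 24714146), the small subunit of ribonucleotide reductase whose level is known to follow S phase, had 255 and 247 CPM in the Th9+TLA1 libraries, against 426 and 451 CPM in the Th9 libraries. Replicates agreed closely, and its log2 fold change was -0.71 ± 0.17 (SE, limma adjusted p = 0.0779). Over the 16 alternative settings its adjusted p lay between 0.0139, with DESeq2, and 0.258. Rrm1, the large subunit, averaged 584 ± 65.2 CPM in Th9+TLA1 libraries and 789 ± 43.7 CPM in Th9 libraries (SD, n = 2 each; log2 fold change -0.34 ± 0.18, limma adjusted p = 0.357). Per kilobase, Rrm2 and Rrm1 stood nearly level in the Th9 libraries, at 199.9 and 197 CPM per kb, while in the Th9+TLA1 libraries Rrm2 was at 114 and Rrm1 at 146 CPM per kb.

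Tk1 (Entrez 21877, chromosome 11, 117815519 to 117826087), the S-phase thymidine kinase of the salvage route, had 26.9 and 25.6 CPM in the Th9+TLA1 libraries, against 50.7 and 46.1 CPM in the Th9 libraries. For Tk1 the log2 fold change was -0.77 ± 0.30 (SE, limma adjusted p = 0.231), and 1 end of its locus overlaps Afmid. Tyms, which makes thymidylate, averaged 37.8 ± 3.46 CPM in Th9+TLA1 libraries and 61.0 ± 11.7 CPM in Th9 libraries (SD, n = 2 each), and Dut, which keeps uracil out of DNA by destroying dUTP, averaged 177 ± 31.3 and 229 ± 25.2 CPM. Their log2 fold changes were -0.58 and -0.29 (limma adjusted p 0.316 and 0.494).

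The 5 regulators of S-phase entry summed to 356 and 297 CPM in the Th9+TLA1 libraries and 428 and 344 CPM in the Th9 libraries, so that their sums overlapped. Their median log2 fold change was -0.27, and differences between role groups were not tested. Ccne2 (Entrez 12448, chromosome 4, 11190433 to 11204779), a cyclin E gene whose product activates CDK2, had 87.3 and 92.5 CPM in the Th9+TLA1 libraries, against 125 and 141 CPM in the Th9 libraries. Its log2 fold change was -0.47 ± 0.21 (SE, limma adjusted p = 0.288), and the part of its locus from 11199158 to 11204779 lies over Ints8. E2f2, an activating E2F gene, had 29.9 and 25.3 CPM with TLA1, against 56.9 and 28.4 CPM without, with only Th9 replicate 1 standing apart (log2 fold change -0.44 ± 0.36, limma adjusted p = 0.584). Without Th9 replicate 1 the log2 fold change of E2f2 was -0.0027, and with Th9 replicate 2 left out it was -0.88.

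Ccne1, the other cyclin E gene, had the highest log2 fold change of the 47, at 0.33 ± 0.30 (SE, limma adjusted p = 0.638). It averaged 50.7 ± 5.64 CPM in Th9+TLA1 libraries and 44.1 ± 16.4 CPM in Th9 libraries (SD, n = 2 each), and its groups overlapped. Without Th9 replicate 2 the log2 fold change of Ccne1 was 0.0084, and without Th9 replicate 1 it was 0.66. Cdc25a, the phosphatase that frees CDK2 from inhibition, averaged 123 ± 40.7 and 119 ± 26.01 CPM, with a wider spread inside each group than between them. E2f1 averaged 35.8 ± 4.05 and 46.5 ± 8.12 CPM (log2 fold change -0.27, limma adjusted p = 0.696).

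**Figure D4:**
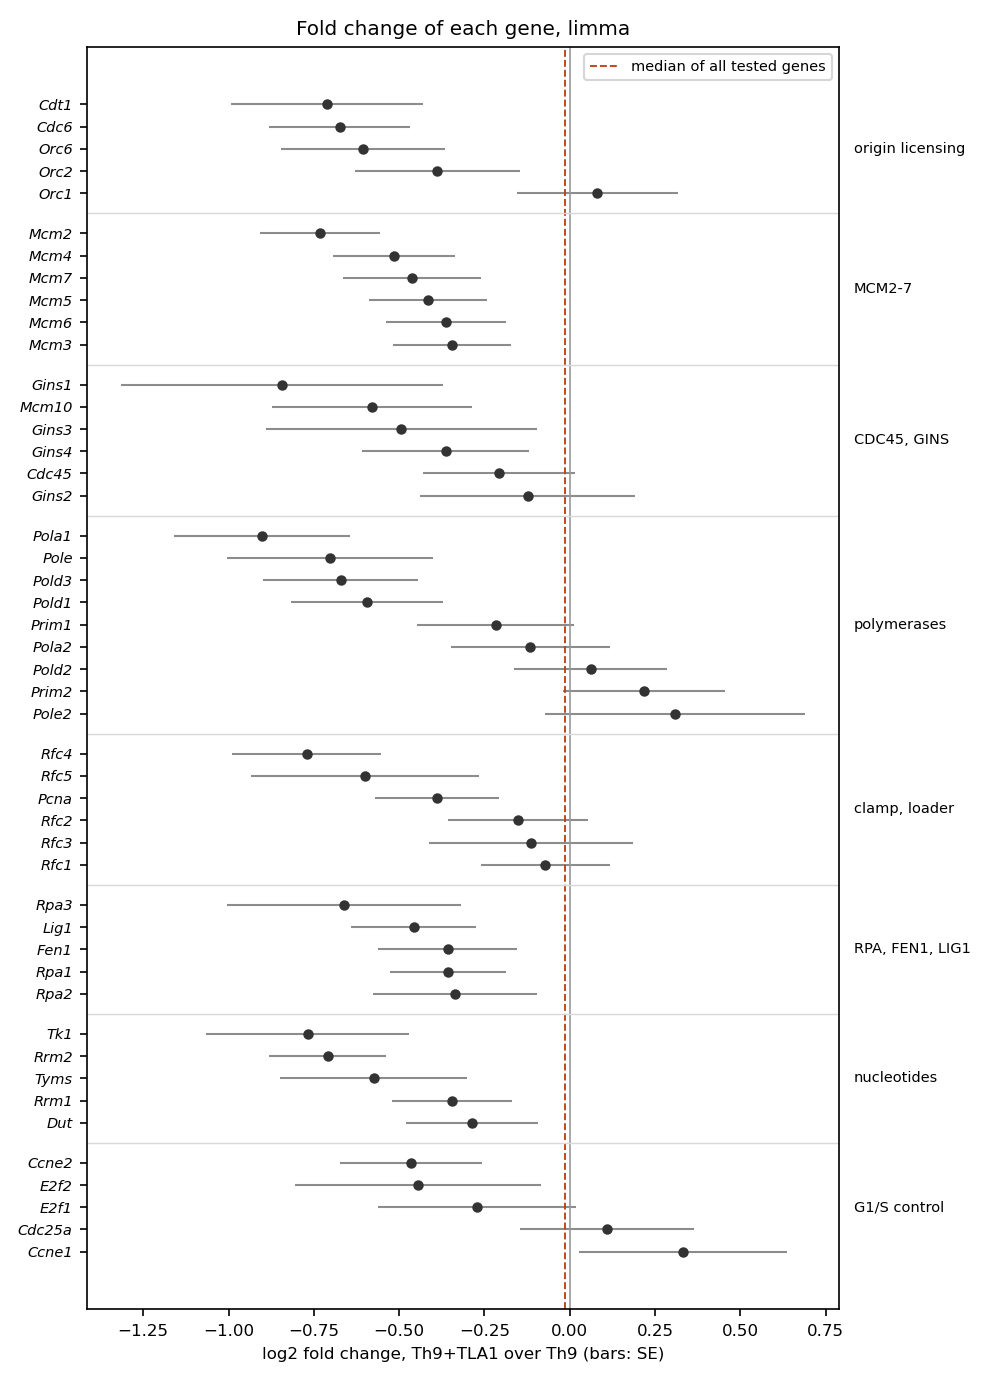
Log2 fold change of each of the 47 genes, Th9+TLA1 over Th9, with bars of 1 SE from limma, ordered within role. The dashed line is the median of all tested genes (-0.01); 41 of the 47 points lie below 0, and no bar belongs to a gene that passed the test.

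Other genes of the same processes were taken from fixed lists. Of 28 further origin, kinase and fork genes, Rif1 fell and none rose, where 0.252% of all tested genes were called lower and 0.891% higher. Rif1, which encodes a protein that holds back origin firing and sets replication timing, had 51.7 and 74.3 CPM in the Th9+TLA1 libraries, against 215 and 157 CPM in the Th9 libraries. Its log2 fold change was -1.46 ± 0.24 (SE, limma adjusted p = 0.0143), and the call was lost without Th9 replicate 1 (0.131), without Th9 replicate 2 (0.121) and with no filter on low counts (0.0511). Over the 16 alternatives Rif1 was called in 13, and its adjusted p lay between 3.37e-05 and 0.131. The median log2 fold change of these 28 genes was -0.43, and 23 of them were below 0. Wdhd1, a fork scaffold, had 64.4 and 41.5 CPM with TLA1, against 168 and 100.4 CPM without (log2 fold change -1.22 ± 0.29, limma adjusted p = 0.0725), while Pold4, the smallest subunit of polymerase delta, had 94.6 and 97.7 against 61.1 and 69.1 CPM (0.65 ± 0.23, limma adjusted p = 0.189).

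All 7 genes that copy chromatin behind the fork had fold changes below 0, with a median of -0.60, and 0 were called. Chaf1a, a histone chaperone subunit, and Dnmt1, which copies DNA methylation, had log2 fold changes of -0.93 and -0.85 (limma adjusted p 0.0807 and 0.0699). Of 26 further genes of nucleotide synthesis and salvage, 19 were below 0 and 0 were called, and their median was -0.28. In deposited CPM 13 of the 26 (50%) were separated and lower, where 29% of all tested genes were. Another 3 (11.5%) were separated and higher, against 19.1% of all tested genes. Pfas had the largest change, at -1.29 ± 0.32 (limma adjusted p = 0.0838). The 3 higher genes were Samhd1, Paics and Adss, the last 2 at 0.52 and 0.30 (limma adjusted p 0.210 and 0.429). Samhd1, which breaks down deoxynucleotides, had 446 and 317 CPM in the Th9+TLA1 libraries, against 186 and 241 CPM in the Th9 libraries (log2 fold change 0.92 ± 0.22, limma adjusted p = 0.0756).

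Of 21 further regulators of S-phase entry 20 were tested, Ccnd1 being too low, and 0 were called. Their median was -0.19, and 4 of the 20 (20%) had higher deposited CPM in both Th9+TLA1 libraries, where 19.1% of all tested genes did. In the other direction 8 of the 20 (40%) were separated, where 29% of all tested genes were. At an unadjusted p under 0.05 (limma), 4 of the 20 (20%) were higher, against 8.54% of all tested genes. By the same measure 2 (10%) were lower, against 8.14%. Ccnd2, a D-type cyclin gene, averaged 968 ± 53.1 CPM in Th9+TLA1 libraries and 660.0 ± 13.5 CPM in Th9 libraries (SD, n = 2 each; log2 fold change 0.64 ± 0.17, limma adjusted p = 0.103). The CDK inhibitor genes Cdkn1a and Cdkn2d had log2 fold changes of 0.65 ± 0.17 and 0.66 ± 0.21 (limma adjusted p 0.107 and 0.151), with separated groups. The CDK inhibitor genes Cdkn1b and Cdkn2c lay on the other side, at -0.40 ± 0.42 and -0.50 ± 0.42 (limma adjusted p 0.696 and 0.600). Tfdp1, the partner of E2F proteins on DNA, had -0.74 ± 0.23 (limma adjusted p = 0.146).

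Genes of G2 and mitosis showed values of similar size. Over 20 such genes the median log2 fold change was -0.43, and all 20 were below 0, Cdc25c at -0.00097. Mki67, the proliferation marker, fell, with 197 and 249.9 CPM in the Th9+TLA1 libraries, against 721 and 389 CPM in the Th9 libraries (log2 fold change -1.16 ± 0.25, SE, limma adjusted p = 0.0464). That call was lost under 8 of the 16 alternative settings, among them without Th9 replicate 1 (adjusted p = 0.216), without Th9 replicate 2 (0.0803) and without Th9+TLA1 replicate 2 (0.0670), with a range from 0.000346 to 0.216. The difference between the S-phase and mitotic lists was not tested. The summed level of the mitotic list was 2295 and 2506 CPM in the Th9+TLA1 libraries and 4250.3 and 3024 CPM in the Th9 libraries, so the Th9 replicates were further apart there than for the 47 genes.

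**Figure D5:**
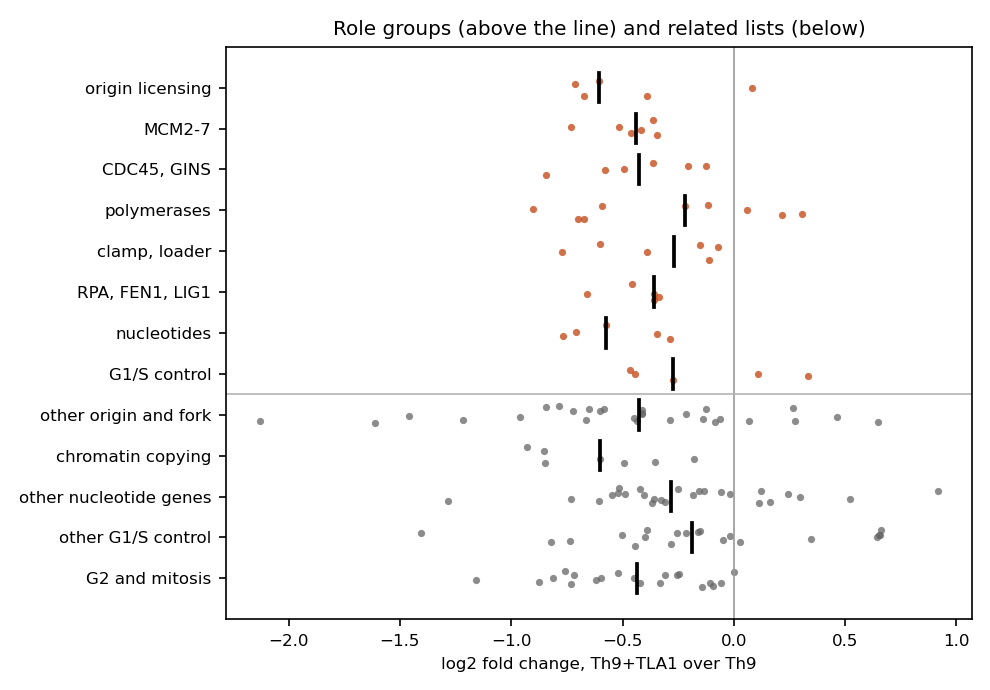
Log2 fold change of each tested gene, Th9+TLA1 over Th9, in the 8 role groups of the 47 genes (orange, above the line) and in 5 related lists (grey, below it), with black bars at the medians. Role group medians lie between -0.61 and -0.22, and the related lists between -0.60 and -0.19.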

How the data were processed

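The authors deposited CPM, read counts scaled to a common library total, in 1 file per library. HTSeq 0.5.4, edgeR and the mm10 build are named in the submitters' processing notes; aligner and annotation: not given in the sources used here. Per the labels' protocols, cDNA came from a SMARTer Ultra Low Input kit, which does not mark strand, and was sequenced on an Ion Torrent instrument. Whole reads were recovered from the CPM (100% of non-zero values whole within 0.01 of a read), and edgeR's quasi-likelihood test on them called 110 genes. Amplified reads are not independent molecules, so the 3-read limit covers counting error only. Symbols came from a RefSeq table of GRCm38.p6 (23383 of 23480 identifiers matched) and merged exon lengths from GENCODE vM21.

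Genes were filtered with filterByExpr (minimum count 10), CPM divided by TMM factors (0.964 to 1.06), and log2(CPM + 1) fitted with limma (eBayes with a mean trend, group only; this scale understates changes of low genes). P-values were Benjamini-Hochberg adjusted over 10324 genes. The fits were run on simulated data whose planted changes were larger than any member showed, so that run cannot speak for changes of the members' size. Replicates were not copies (chi-square per degree of freedom 7.67 for Th9+TLA1, 12.7 for Th9). In each role group, values in every library are given for called genes and the 2 largest fold changes; other genes named were chosen after their values were seen. The members and lists were chosen with earlier results of these data known. Values were tested in R 4.3.3 (edgeR 4.0.16, limma 3.58.1, DESeq2 1.42.0) and tabulated and drawn in Python 3.11.15 (numpy 2.4.6, pandas 2.3.3, matplotlib 3.10.9).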

Additional observations from a re-analysis of the deposited data

How the results depend on the processing

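The 16 alternatives were other scaling, pseudocounts, filters and tests, the replicate number as a block, each library left out, and a length and GC trend removed (chosen after seeing the data; all 47 genes had both values). Between 39 and 43 of the 47 genes were lower with TLA1 under each. Of the 47, 37 stayed below 0 and 2 (Ccne1 and Prim2) above 0 throughout. Genes called of all tested were 118, against 73 with total count scaling, 33 with no filter on low counts, 273 with DESeq2, 225 with the replicate block and 19 to 155 with 1 library left out (155 and 96 without Th9+TLA1 replicate 1 and 2, 42 and 19 without Th9 replicate 1 and 2). Of the 47, DESeq2 called 2 (Mcm2 and Rrm2) and the length and GC setting 1 (Mcm2), where the main analysis called 0; the cause was not tested. The median of the 47 was -0.48 with total count scaling, where the median of all genes was -0.10, and -0.46 to -0.30 with 1 library left out.

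Signs turned for Orc1 (-0.0096) and Pold2 (-0.030) with total count scaling, for Pold2 (-0.12) and Rfc1 (0.012) with the length and GC trend removed, and in some of the fits that left out 1 library, where the ranges were -0.040 to 0.20 for Orc1, -0.50 to 0.25 for Gins2, -0.13 to 0.25 for Pold2, -0.24 to 0.46 for Cdc25a, -0.19 to 0.044 for Rfc1, -0.44 to 0.014 for Prim1, -0.28 to 0.90 for Pole2 and -0.35 to 0.14 for Rfc3. Whether same-numbered libraries share an animal or culture is not given in the labels. Their deviations from the group means correlated at -0.01 over tested genes, which cannot decide it, and the block called 0 of the 47. Where 1 library was left out, the lone library of its group was assumed to vary like the other group.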
